A study of Mus musculus with 4 samples.

Results

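The genes described here make sterols and fatty acids. A list of 39 gene symbols was looked up in the expression table of sorted embryonic hair peg cells, and all 39 were found among its 23361 genes. They fall into 16 enzymes of sterol synthesis, 5 regulators of the sterol regulatory element binding protein (SREBP) pathway and 18 genes of fatty acid synthesis, elongation and desaturation. The hair peg is the stage at which the embryonic follicle has grown down into the dermis as a column of epithelial cells. The study asked how Nfatc1+ cells and Shh+ cells of the hair peg differ, and the comparison below puts their lipid genes side by side.

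Both populations came from the back skin of mouse embryos that carried Rosa-stop-tdTomato, a red reporter that Cre switches on, and K14-H2BGFP, a nuclear GFP under the keratin 14 promoter that marks epithelial cells. They differed in the driver, Nfatc1-CreER or Shh-CreER, so a sorted cell is one that used that driver when tamoxifen was given or a descendant of such a cell. Tamoxifen was given at E15.5, double positive cells were sorted at E17.5, and 2 libraries were made from each population. For Nfatc1+ cells, whole skin was kept in 0.25% trypsin at 37°C for 16 min, whereas for Shh+ cells the epidermis was first lifted off with dispase and the dermis that held the hair pegs was then in trypsin for 10 min. These handling steps and the population cannot be told apart in this design. No label ties a library to an animal or litter. Each p-value therefore reflects only how far libraries of a population lie from each other, in that gene and in others of similar level. That spread may be technical. In such bulk samples, fewer cells of one type and less RNA per cell cannot be told apart either.

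Expression is given in FPKM, the fragments mapped to a gene divided by its transcript length and by the size of the library, so levels can be compared between genes as well as between libraries. The file holds no read counts, and the absolute depth is unknown. Relative to Nfatc1+ replicate 1, the depth read from the steps between low values was 0.934 in its partner library, 0.916 in Shh+ replicate 1 and 0.563 in the other Shh+ library. Differences were tested with limma on log2(FPKM + 0.5) over the 12750 genes whose mean was 0.5 FPKM or more, and a gene was called when its p, adjusted by Benjamini and Hochberg's method, was under 0.05. A positive log2 fold change means higher in Shh+ cells. On this scale the pseudocount shrinks the change of low genes, and each fold given is the ratio of the group means in FPKM. Epithelial markers were high in all 4 libraries: Krt14, whose promoter drives the GFP, was at 1232, 1204, 1030 and 1086 FPKM.

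Sterols and fatty acids are built from the same cytosolic acetyl-CoA. One arm condenses it to mevalonate, isoprenoids, squalene and at last cholesterol, and the other carboxylates it to malonyl-CoA and builds palmitate, which elongases lengthen and desaturases give double bonds. The membrane-bound SREBP factors govern both arms: Srebf2 is best known for the sterol enzymes and Srebf1 for the fatty acid enzymes, Scap escorts both proteins to the Golgi where they are cut free, and the Insig proteins hold Scap back when sterol is plentiful. In skin, these lipids go into the membranes of growing cells, the sebum of the sebaceous gland and the water barrier of the epidermis.

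Proximal promoter sequence was taken from RefSeq (GRCm38.p6) for the 32 members that have a window there, each from 250 bases before a transcript start to 50 bases after it. Motifs were searched on both strands. TCACNCCAC, one form of the sterol regulatory element, was found in 1 of the 32 members, Hmgcs1, where it begins at position -137 relative to the start, and in 1.44% of all 27025 genes with a window. The E-box CACGTG was found in 6 members (18.8%) and in 8.09% of all genes. CCAAT, the letters bound by the factor NF-Y, was found in 24 members (75%) and in 41.1% of all genes. By group, it was in 12 of 13 sterol genes (92.3%), 4 of 5 regulators (80%) and 8 of 14 fatty acid genes (57.1%). A gene counted when any of its windows matched, and some genes have more than 1. By window, CCAAT was in 75% of 16 sterol, 50% of 10 regulator and 47.1% of 17 fatty acid windows. The share of all windows was 37.4%. A match describes letters in the window and is not a measured binding site. The stretches below are parts of 8 windows, chosen to lie outside annotated exons, with motif matches in capitals. The Hmgcs1 window also holds CCAAT matches at -237, -176 and 10 that are not shown. Hmgcs1 is shown for its sterol element, Mvk for the 5 CCAAT matches in its window, Mvd and Ebp as sterol genes that differed in opposite directions, and Srebf1 as the regulator that differed most. Srebf1 has 3 windows, and its stretch comes from the window with the lowest coordinates. Another Srebf1 window holds a CCAAT match at -166 that is not shown. Fasn holds 3 CCAAT matches, of which the 2 nearest the start share 2 letters, Elovl5 holds an E-box and 2 CCAAT matches, and Elovl7 holds none of the motifs.
Hmgcs1, chr13:119690191-119690330, plus strand: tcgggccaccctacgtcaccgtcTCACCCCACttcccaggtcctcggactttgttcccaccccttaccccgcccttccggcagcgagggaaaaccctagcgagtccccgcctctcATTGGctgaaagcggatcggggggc
Mvk, chr5:114444089-114444268, plus strand: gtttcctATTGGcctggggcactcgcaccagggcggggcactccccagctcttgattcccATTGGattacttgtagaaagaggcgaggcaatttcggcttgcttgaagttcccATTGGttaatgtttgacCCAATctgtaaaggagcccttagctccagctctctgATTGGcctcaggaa
Mvd, chr8:122443424-122443502, minus strand: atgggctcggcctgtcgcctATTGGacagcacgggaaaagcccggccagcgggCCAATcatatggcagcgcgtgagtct
Ebp, chrX:8193514-8193692, minus strand: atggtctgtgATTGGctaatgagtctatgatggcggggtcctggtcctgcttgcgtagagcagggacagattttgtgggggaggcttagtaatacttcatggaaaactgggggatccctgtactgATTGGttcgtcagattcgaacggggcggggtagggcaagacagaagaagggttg
Srebf1, chr11:60210472-60210591, minus strand: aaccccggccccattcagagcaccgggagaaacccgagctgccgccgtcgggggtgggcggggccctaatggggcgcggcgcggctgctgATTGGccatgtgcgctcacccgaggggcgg
Fasn, chr11:120824549-120824667, minus strand: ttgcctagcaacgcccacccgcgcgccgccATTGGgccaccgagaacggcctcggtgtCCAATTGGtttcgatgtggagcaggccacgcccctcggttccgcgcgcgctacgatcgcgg
Elovl5, chr9:77917195-77917363, plus strand: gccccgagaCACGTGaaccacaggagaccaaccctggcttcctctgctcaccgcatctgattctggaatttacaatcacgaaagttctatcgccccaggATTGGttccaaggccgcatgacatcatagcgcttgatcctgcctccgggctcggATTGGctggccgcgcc
Elovl7, chr13:108214284-108214402, plus strand: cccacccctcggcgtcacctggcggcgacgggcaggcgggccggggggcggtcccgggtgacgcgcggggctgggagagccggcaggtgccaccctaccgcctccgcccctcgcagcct

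Across the 37 members that could be tested, 11 had more RNA in Shh+ cells, 9 had more in Nfatc1+ cells and 17 were not called. Over all tested genes, 18.1% were called toward Shh+ cells and 18.9% toward Nfatc1+ cells, 37% in all. Scd3 and Fads3 stayed below the filter and were not tested. The sterol enzymes differed little and mostly toward Shh+ cells, while single fatty acid genes differed by several fold in both directions.

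In the sterol arm, 5 of 16 enzymes (31.2%) were called toward Shh+ cells, namely Acat2, Mvk, Mvd, Idi1 and Fdps, and 2 (12.5%), Ebp and Dhcr7, were higher in Nfatc1+ cells. The remaining 9 were not called. The shares of all tested genes were 18.1% toward Shh+ cells and 18.9% toward Nfatc1+ cells. The 5 lie at or before the step that makes farnesyl diphosphate, and the 2 act at the end of the path, on the sterol ring system. Most of these calls did not hold when 1 library was left out, as given below, so the positions describe the called genes only. No sterol gene differed by as much as 2-fold, and the 95% confidence interval of every one of the 16 log2 fold changes lay within 2-fold in either direction, as it did for 79.5% of all tested genes.

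The mevalonate steps come first. Acat2, which joins acetyl-CoA units, was at 52.1 and 51.2 FPKM in the Nfatc1+ libraries and 65.0 and 58.7 FPKM in the Shh+ libraries (log2 fold change 0.26, limma adjusted p = 0.0280). Hmgcs1, which adds the next acetyl unit to give HMG-CoA and whose promoter carries the sterol element above, was at 82.9 and 88.5 FPKM in Nfatc1+ cells and 97.3 and 90.6 FPKM in Shh+ cells. The Hmgcs1 libraries of the populations did not overlap, but the log2 fold change of 0.13 (confidence interval -0.027 to 0.29) was not called (limma adjusted p = 0.168). Mvk, mevalonate kinase, was at 17.7 and 17.45 FPKM against 25.4 and 20.5 FPKM (0.37, adjusted p = 0.0367). Its next partner, Pmvk, was at 20.5 and 18.3 against 20.4 and 20.2 FPKM, so that the groups overlapped. Mvd, the decarboxylase that ends this stretch, was at 13.6 and 16.1 against 19.4 and 17.9 FPKM (0.32, adjusted p = 0.0466).

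Idi1 and Fdps then turn isopentenyl diphosphate into farnesyl diphosphate. Idi1 lies on chromosome 13 from 8885501 to 8892451 (GRCm38, as for all positions here). It was at 37.3 and 39.2 FPKM in Nfatc1+ cells and 54.8 and 48.6 FPKM in Shh+ cells, means of 38.2 ± 1.34 and 51.7 ± 4.44 FPKM (SD, n = 2). The difference was 1.35-fold (log2 fold change 0.43, standard error 0.08, limma adjusted p = 0.0056), the largest among the called sterol genes. Both Shh+ libraries lay above both Nfatc1+ libraries. Fdps was the most abundant sterol gene in Shh+ cells, at 105.4 and 90.3 FPKM against 77.7 and 78.4 FPKM in the Nfatc1+ libraries (0.32, adjusted p = 0.0214).

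From squalene onward the calls ceased until the last steps. Squalene synthase Fdft1 (log2 fold change 0.20), squalene epoxidase Sqle (0.24) and the cyclase Lss (0.10), which closes the ring, were not called. Nor were Cyp51 (-0.17), Tm7sf2 (0.49), Nsdhl (0.13) and Hsd17b7 (0.24), which trim the methyl groups of lanosterol and reduce the ring. Tm7sf2 had the largest standard error of the arm on the log2 scale (0.19), with 4.17 and 6.47 FPKM in Nfatc1+ cells and 7.81 and 7.26 FPKM in Shh+ cells (adjusted p = 0.0834). Ebp, the isomerase that moves a double bond within the ring, was at 11.8 and 10.9 FPKM in Nfatc1+ cells and 8.98 and 8.42 FPKM in Shh+ cells (-0.36, adjusted p = 0.0249). Dhcr7, whose product is cholesterol, was at 18.9 and 19.1 FPKM against 15.3 and 13.5 FPKM (-0.39, adjusted p = 0.0136). For both enzymes the Nfatc1+ libraries lay above the Shh+ libraries, by 1.30-fold and 1.32-fold in the means. The ratio of Dhcr7 to Idi1 was 0.507 and 0.487 in the Nfatc1+ libraries and 0.279 and 0.278 in the Shh+ libraries.

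**Figure D1:**
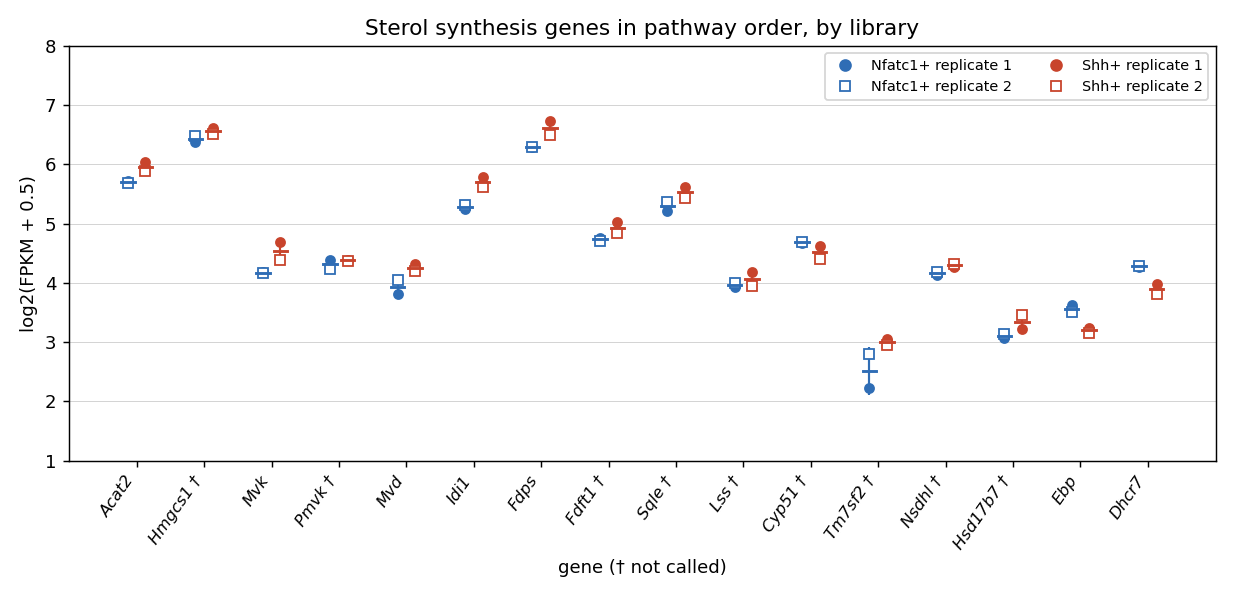
The 16 sterol enzymes in pathway order (x axis) against log2(FPKM + 0.5) in each library (y axis); blue is Nfatc1+, red is Shh+, horizontal dashes are group means, vertical bars give the SD (n = 2), and genes not called carry a dagger. Shh+ points sit a little above Nfatc1+ points for most genes up to Sqle, and below them for Ebp and Dhcr7.

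As a group, the sterol genes had a median log2 fold change of 0.22 (range -0.39 to 0.49) beside a median of 0.0018 over all tested genes. Both Shh+ libraries were above both Nfatc1+ libraries for 11 of the 16 genes (68.8%, against 35.6% of all tested genes), the reverse held for Cyp51, Ebp and Dhcr7 (35.1% of all tested genes), and Pmvk and Lss overlapped. In either direction, 70.7% of all tested genes did not overlap. The summed level of the 16 genes was 464.9 and 478.9 FPKM in the Nfatc1+ libraries and 570.0 and 512.7 FPKM in the Shh+ libraries. The Shh+ libraries also differed from each other, since 14 of the 16 genes were higher in Shh+ replicate 1 than in replicate 2, against 51.7% of all tested genes. In Nfatc1+ cells, 5 of the 16 were higher in replicate 1. Shh+ replicate 2 was the shallowest library, and the part of depth in this shift was not tested. Leaving out 1 library ended 6 of the 7 sterol calls, all but that of Idi1. Those of Acat2, Mvk and Fdps ended without either Nfatc1+ replicate or without Shh+ replicate 1, and that of Mvd without Nfatc1+ replicate 1 or either Shh+ replicate. The call of Ebp ended without any 1 of the 4 libraries, and that of Dhcr7 without either Nfatc1+ replicate or without Shh+ replicate 2. Over all alternatives, the highest adjusted p was 0.119 for Acat2, 0.130 for Mvk, 0.237 for Mvd, 0.0822 for Fdps, 0.157 for Ebp and 0.0745 for Dhcr7. In the other direction, Fdft1 and Sqle were called without Shh+ replicate 2 (adjusted p = 0.0445 and 0.0447). Without Nfatc1+ replicate 1 or without Shh+ replicate 1, Idi1 was the single sterol gene called higher in Shh+ cells.

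Of the 5 regulators, Srebf1 alone was called, with more RNA in Nfatc1+ cells (20%, beside 18.9% of all tested genes). The other 4 were not called. Srebf1 lies on chromosome 11 from 60199089 to 60222581 on the minus strand, and RefSeq gives it 3 starts in the promoter table. It was at 63.6 and 71.3 FPKM in the Nfatc1+ libraries and 36.5 and 32.3 FPKM in the Shh+ libraries, means of 67.4 ± 5.43 and 34.4 ± 3.02 FPKM (SD, n = 2). The lower of the Nfatc1+ libraries was well above the higher of the Shh+ libraries, and the log2 fold change was -0.96 (standard error 0.09, limma adjusted p = 0.000243), or 1.96-fold. A gene-level FPKM adds up the transcripts from all starts, so it cannot tell the Srebf1 isoforms apart.

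Srebf2, the most abundant regulator, was at 76.5 and 83.2 FPKM in Nfatc1+ cells and 80.9 and 75.4 FPKM in Shh+ cells. The libraries of the populations were interleaved, and the log2 fold change was -0.030 with a confidence interval of -0.20 to 0.14 (limma adjusted p = 0.764). The ratio of Srebf1 to Srebf2 within a library was 0.832 and 0.857 in Nfatc1+ cells and 0.451 and 0.428 in Shh+ cells. Scap was at 40.3 and 40.9 against 36.4 and 33.7 FPKM and missed the threshold (-0.21, adjusted p = 0.0516), which it passed without Shh+ replicate 1 (adjusted p = 0.0462). Insig1, itself a target of the pathway, was at 15.9 and 17.9 against 21.1 and 18.1 FPKM (0.20, adjusted p = 0.167). Insig2 went the other way, at 11.8 in both Nfatc1+ libraries and 9.07 and 11.2 FPKM in the Shh+ libraries (-0.22, adjusted p = 0.179). The ratio of Insig1 to Insig2 was 1.34 and 1.51 in Nfatc1+ cells and 2.32 and 1.61 in Shh+ cells, with the libraries apart but close.

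The fatty acid arm split evenly. Of 16 tested genes, 6 (37.5%) were higher in Shh+ cells, namely Acly, Me1, Elovl2, Elovl7, Fads1 and Fads2, and 6 (37.5%) were higher in Nfatc1+ cells, namely Acacb, Scd1, Elovl1, Elovl3, Elovl5 and Elovl6. Acaca, Fasn, Scd2 and Elovl4 were not called. Over all tested genes, 18.1% were called toward Shh+ cells and 18.9% toward Nfatc1+ cells. The core steps up to palmitate differed little, and the large differences were in genes that desaturate and elongate fatty acid chains.

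Acly, which splits citrate to supply the acetyl-CoA of both arms, was at 73.4 and 75.7 FPKM in the Nfatc1+ libraries and 88.0 and 84.7 FPKM in the Shh+ libraries (log2 fold change 0.21, limma adjusted p = 0.0290). Me1, a malic enzyme that yields NADPH for synthesis, was at 29.6 and 27.0 against 33.9 and 35.9 FPKM (0.30, adjusted p = 0.0209). Acaca, the cytosolic acetyl-CoA carboxylase, was at 16.4 and 16.8 against 19.0 and 17.7 FPKM (0.14, adjusted p = 0.206). Shh+ libraries were thus above Nfatc1+ libraries for all of these, by small margins. The call of Acly ended without any 1 of the 4 libraries (adjusted p up to 0.136 over the alternatives), and that of Me1 without Nfatc1+ replicate 2 or Shh+ replicate 2 (up to 0.128). Acacb, the carboxylase that sits at mitochondria and is known for holding back fatty acid oxidation, was low throughout, at 2.06 and 1.36 FPKM in Nfatc1+ cells and 0.836 and 0.808 FPKM in the Shh+ libraries (-0.72, adjusted p = 0.0410). The Acacb call ended with no filter on low values and without Nfatc1+ replicate 1, Shh+ replicate 1 or Shh+ replicate 2, with adjusted p up to 0.208. Fasn, fatty acid synthase itself, was at 35.8 and 38.8 FPKM in Nfatc1+ cells and 54.3 and 41.5 FPKM in Shh+ cells (0.34, adjusted p = 0.0698). Its Shh+ libraries were further apart from each other than replicate 2 was from the Nfatc1+ libraries, and Fasn was called without Shh+ replicate 2 (adjusted p = 0.00792).

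The stearoyl-CoA desaturases, which place the first double bond, lie side by side on chromosome 19: Scd3 from 44203269 to 44244016, Scd2 from 44293674 to 44306864 and Scd1 from 44394455 to 44407879. Scd1 was at 47.4 and 42.0 FPKM in the Nfatc1+ libraries and 9.26 and 7.16 FPKM in the Shh+ libraries, means of 44.7 ± 3.81 and 8.21 ± 1.49 FPKM (SD, n = 2). The gap of 5.45-fold was far larger than the spread within either population (log2 fold change -2.38, standard error 0.13, limma adjusted p = 2.3e-05). Scd2, the most abundant of all 39 genes, was at 194.3 and 217.2 FPKM in Nfatc1+ cells and 246.4 and 213.7 FPKM in Shh+ cells. These groups overlapped, and the log2 fold change of 0.16 had a confidence interval of -0.051 to 0.37 (adjusted p = 0.202). Scd3 was at 0.961 and 0.673 FPKM in Nfatc1+ cells and 0.112 and 0.0452 FPKM in Shh+ cells, too low to pass the filter. With the filter removed, Scd3 was called higher in Nfatc1+ cells (log2 fold change -1.18, adjusted p = 0.00773).

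Because Scd2 was so abundant, the summed Scd level hardly separated the populations: 242.7 and 259.9 FPKM in Nfatc1+ cells and 255.8 and 220.9 FPKM in Shh+ cells. What differed was the make-up. Scd1 gave 19.5% and 16.2% of the sum in the Nfatc1+ libraries and 3.62% and 3.24% in the Shh+ libraries. The coding sequences of these genes are alike, so reads that fit more than one of them may have been divided between them, and the part of such reads was not tested.

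The elongases differed in both directions. Their summed level was 101.2 and 89.9 FPKM in the Nfatc1+ libraries and 53.2 and 44.6 FPKM in the Shh+ libraries. Of 7 genes, 4 were called toward Nfatc1+ cells and 2 toward Shh+ cells, beside 18.9% and 18.1% of all tested genes. Elovl4, which makes the very long chains of the skin barrier, was not called (5.71 and 6.19 against 5.61 and 4.50 FPKM, log2 fold change -0.22, limma adjusted p = 0.248).

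Elovl6 lengthens palmitate to stearate and lies on chromosome 3 from 129532355 to 129638495. It was at 22.9 and 19.6 FPKM in Nfatc1+ cells and 8.30 and 6.30 FPKM in Shh+ cells, a 2.91-fold difference (log2 fold change -1.49, standard error 0.14, limma adjusted p = 0.000297). Elovl5, which lengthens polyunsaturated chains and was the most abundant elongase in Nfatc1+ cells, was at 37.2 and 34.8 FPKM against 14.9 and 13.4 FPKM in Shh+ cells. The Elovl5 difference was 2.55-fold (-1.32, standard error 0.08, adjusted p = 4.6e-05). Elovl1, which makes saturated very long chains, was at 26.7 and 23.4 against 17.0 and 13.3 FPKM (-0.71, adjusted p = 0.00501). All of these had both Nfatc1+ libraries above both Shh+ libraries.

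Elovl3, an elongase known from sebaceous glands and brown fat, was at 4.55 and 2.21 FPKM in the Nfatc1+ libraries and was listed at 0 in both Shh+ libraries. The fitted log2 fold change of -2.89 (limma adjusted p = 0.000558) depends on the pseudocount, with values from -5.04 to -2.08 over the alternatives, and no fold is given. On the log2 scale, the Nfatc1+ replicates of Elovl3 differed from each other by more than those of any other called elongase.

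Toward Shh+ cells, Elovl2, which carries polyunsaturated chains further than Elovl5, was at 0.374 and 0.429 FPKM in Nfatc1+ cells and 1.59 and 1.34 FPKM in Shh+ cells. That was 3.65-fold in the means at a low level (log2 fold change 1.12, standard error 0.21, limma adjusted p = 0.00631). Elovl7, an elongase of long saturated chains, was at 3.75 and 3.20 against 5.87 and 5.72 FPKM (0.67, adjusted p = 0.00705). As the abundant elongases were lower in Shh+ cells, the share of Elovl7 in the family was 11.03% and 12.8% there, against 3.71% and 3.56% in Nfatc1+ cells. The ratio of Elovl7 to Elovl6 was 0.164 and 0.163 in the Nfatc1+ libraries and 0.707 and 0.908 in the Shh+ libraries. Elovl5 still gave 27.9% and 30.1% of the family in Shh+ cells, beside 36.8% and 38.7% in Nfatc1+ cells.

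The Fads genes, whose enzymes put further double bonds into polyunsaturated chains, also sit together on chromosome 19, with Fads3 from 10041569 to 10060110, Fads2 from 10062765 to 10101746 and Fads1 from 10182888 to 10196877. Fads2, the enzyme of the entry step, was at 9.32 and 9.77 FPKM in the Nfatc1+ libraries and 37.7 and 23.4 FPKM in the Shh+ libraries. Its means were 9.54 ± 0.322 and 30.6 ± 10.1 FPKM (SD, n = 2), and the 3.20-fold difference was called although the Shh+ replicates lay far apart (log2 fold change 1.59, standard error 0.20, limma adjusted p = 0.00100). Fads1, which acts later in the same path, was at 18.1 and 20.1 against 26.2 and 24.4 FPKM (0.40, adjusted p = 0.0103), a call that ended without Nfatc1+ replicate 1 or Shh+ replicate 1 (up to 0.0666). Fads3, a relative, was between 0.111 and 0.625 FPKM in the 4 libraries and was not tested. The ratio of Fads2 to Fads1 was 0.515 and 0.487 in Nfatc1+ cells and 1.44 and 0.96 in Shh+ cells, so Fads2 passed Fads1 in Shh+ replicate 1 and came near it in replicate 2. Thus of the genes for polyunsaturated chains, Fads1, Fads2 and Elovl2 were higher in Shh+ cells and Elovl5 was higher in Nfatc1+ cells.

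**Figure D2:**
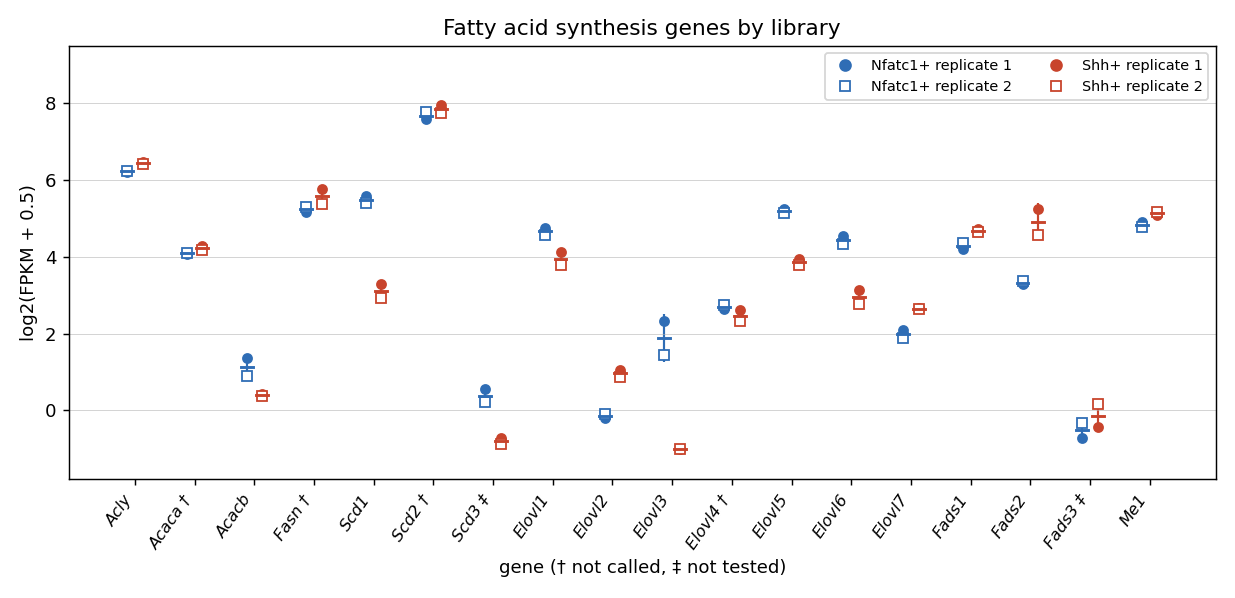
The 18 genes of fatty acid synthesis (x axis) against log2(FPKM + 0.5) in each library (y axis); blue is Nfatc1+, red is Shh+, horizontal dashes are group means, vertical bars give the SD (n = 2), and a dagger stands beside genes not called and a double dagger beside genes not tested. Scd1, Elovl3, Elovl5 and Elovl6 show wide gaps with Nfatc1+ on top, Fads2 and Elovl2 show gaps with Shh+ on top, and Scd2 overlaps.

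**Figure D3:**
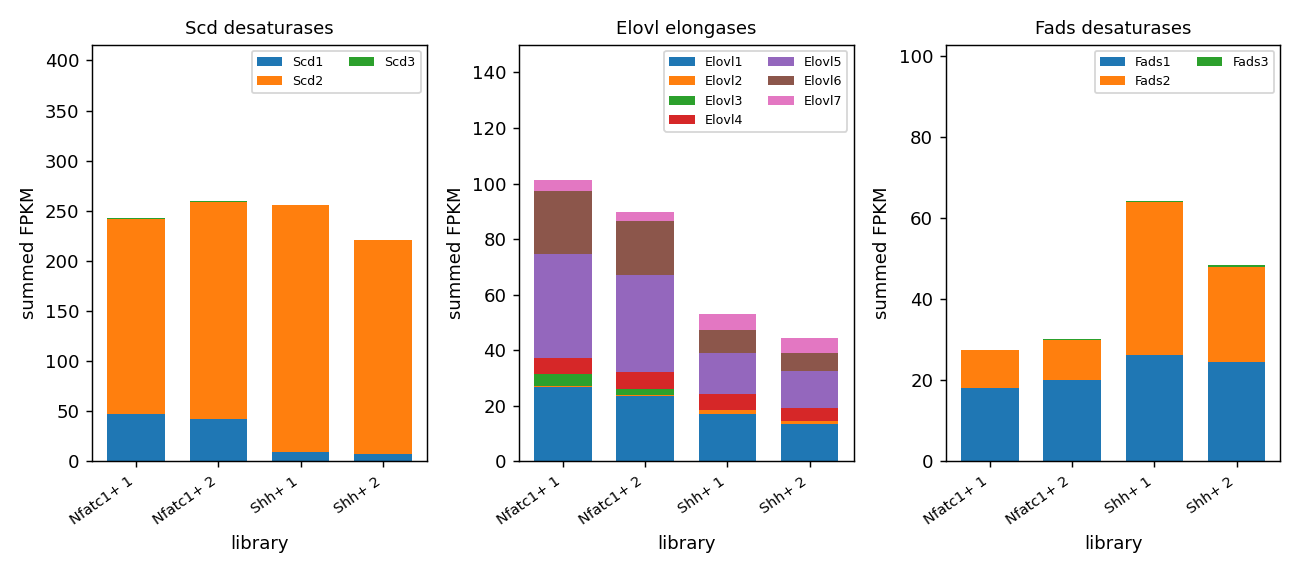
Summed FPKM (y axis) of the Scd, Elovl and Fads genes in each library (x axis), as stacked bars with 1 colour per gene and a separate scale per family. The Scd sums lie between 220.9 and 259.9 FPKM in all 4 libraries with a smaller Scd1 portion in Shh+ cells, the Elovl sums are lower in Shh+ cells, and the Fads sums are 27.5 and 30.1 FPKM in Nfatc1+ cells and 64.2 and 48.4 FPKM in Shh+ cells.

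Set side by side, the arms differed in the size of the differences more than in their middle. The median log2 fold change was 0.22 for the sterol enzymes and 0.15 for the fatty acid genes, but the median size regardless of direction was 0.25 in the sterol arm and 0.69 in the fatty acid arm, beside 0.24 over all tested genes. The SD of the log2 fold changes was 0.26 in the sterol arm, 1.22 in the fatty acid arm and 0.72 over all tested genes. A called log2 fold change of size 1 or more was found in 0 of 16 sterol and 6 of 16 fatty acid genes (37.5%). Over all tested genes the share was 10.6% (5.81% toward Nfatc1+ cells and 4.77% toward Shh+ cells). Acacb, at 2.08-fold in the means, fell short on this scale (-0.72). The 6 were Scd1, Elovl3, Elovl5 and Elovl6 toward Nfatc1+ cells and Fads2 and Elovl2 toward Shh+ cells, and none of the alternatives under which they were tested ended any of these calls. Elovl2 was not tested when a mean of 1 FPKM was required, which it did not reach. Elovl2 and Elovl3 passed the filter of 0.5 FPKM only through the population where they were high. In the other population, the mean was 0.402 FPKM for Elovl2 (Nfatc1+) and 0 for Elovl3 (Shh+). The lowest group mean of a sterol gene was 5.32 FPKM. The arms had no common members and the difference between them was not tested, so these counts and medians describe the lists. As in the sterol arm, 14 of 16 fatty acid genes were higher in Shh+ replicate 1 than in replicate 2, which makes 28 of 32 over both arms. The mean log2 level of the 16 tested fatty acid genes was 3.99 and 3.89 in the Nfatc1+ libraries and 3.74 and 3.54 in the Shh+ libraries, while their summed level, dominated by Scd2, was 527.5 and 538.5 against 568.9 and 493.8 FPKM.

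**Figure D4:**
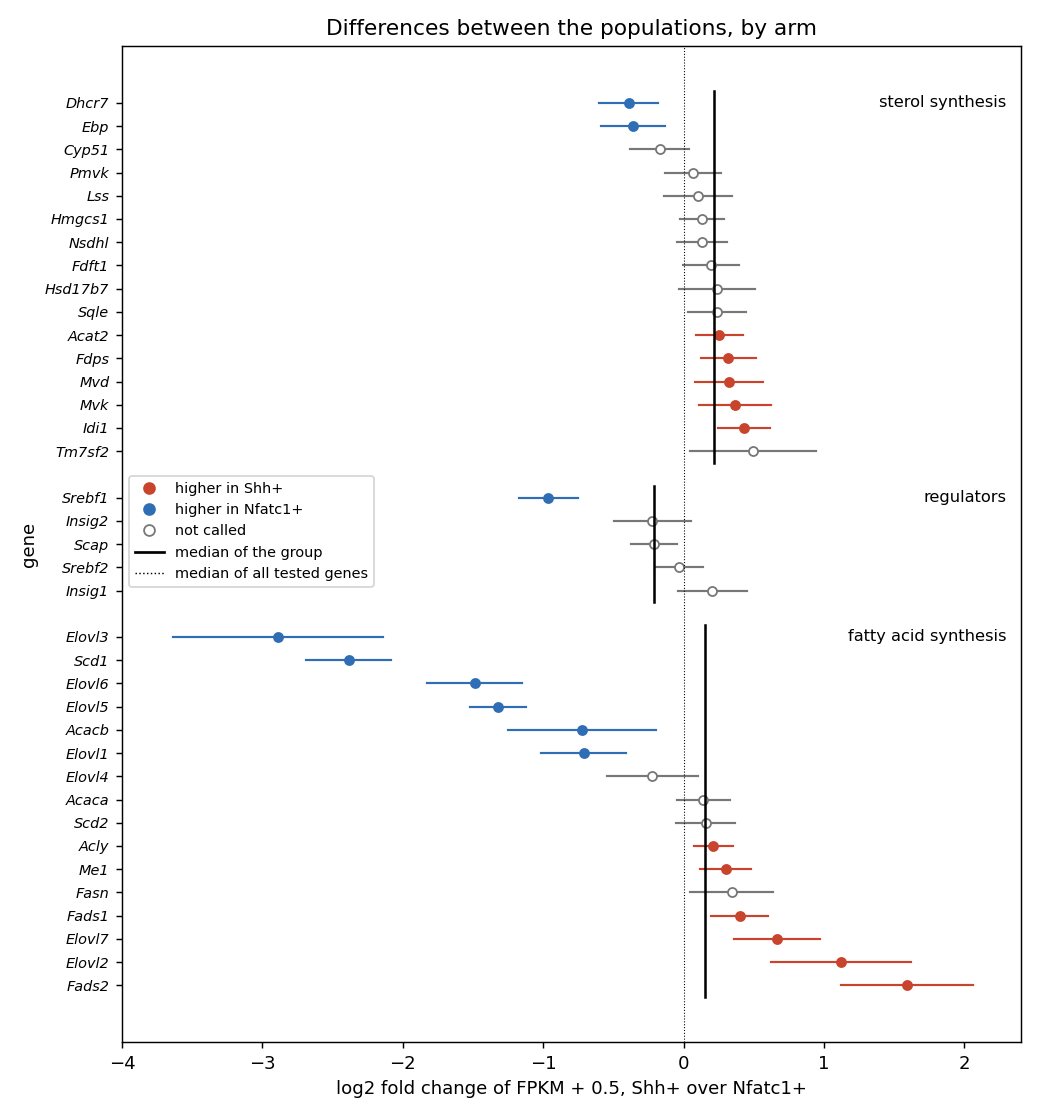
Difference of log2(FPKM + 0.5) between Shh+ and Nfatc1+ cells (x axis, positive toward Shh+), with 95% confidence intervals for the 37 tested genes (y axis), by group; red and blue circles are genes called higher in Shh+ and in Nfatc1+ cells, open circles are genes not called, thick lines are group medians and the dotted line is the median of all tested genes. Sterol genes stay between -0.39 and 0.49, while fatty acid genes run from -2.89 to 1.59.

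Other genes of the same pathways were read from a list of 18 sterol and 29 fatty acid genes outside the 39, all of them in the file. On the sterol side all 18 were tested, with a median log2 fold change of -0.22. Of these, 2 (11.1%) were called toward Shh+ cells and 8 (44.4%) toward Nfatc1+ cells. The shares over all tested genes were 18.1% and 18.9%. Mylip, a ubiquitin ligase that lowers lipoprotein uptake, was at 11.7 and 11.8 FPKM in Nfatc1+ cells and 31.9 and 33.2 FPKM in Shh+ cells (1.43, limma adjusted p = 1.91e-05). The other was Stard4, a sterol carrier named here after its values were seen, at 17.7 and 18.5 against 35.4 and 29.2 FPKM (0.81, adjusted p = 0.000976). Both had the Shh+ libraries on top. Abca1, which exports cholesterol, was at 16.3 and 17.8 FPKM in Nfatc1+ cells and 6.90 and 6.53 FPKM in Shh+ cells (-1.28, adjusted p = 9.15e-05). Soat1, which makes cholesterol esters for storage, was at 12.4 and 8.55 against 4.79 and 4.23 FPKM (-1.11, adjusted p = 0.00299). Abca1 and Soat1 thus stood higher in Nfatc1+ cells, where the summed level of the sterol enzymes was lower.

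On the fatty acid side, 24 of the 29 were tested, with a median of -0.19. Of these, 1 (4.17%) was called toward Shh+ cells and 9 (37.5%) toward Nfatc1+ cells, against 18.1% and 18.9% of all tested genes. The 1 was Ptplb, a dehydratase of the elongation cycle named here after its values were seen (0.31, limma adjusted p = 0.0370). Idh1, an isocitrate dehydrogenase that yields NADPH in the cytosol, was at 184.0 and 176.5 FPKM in Nfatc1+ cells and 76.9 and 76.0 FPKM in Shh+ cells (-1.23, adjusted p = 1.26e-05). Acss2, which makes acetyl-CoA from acetate, was at 6.15 and 4.55 against 2.395 and 2.35 FPKM (-1.01, adjusted p = 0.00349). Acsl1, which activates fatty acids to their CoA esters, was at 16.2 in both Nfatc1+ libraries and 8.08 and 7.57 FPKM in Shh+ cells (2.07-fold, adjusted p = 0.000196). These genes differed in the same direction as Scd1 and Elovl6, whereas Acly and Me1, which supply acetyl-CoA and NADPH by other routes, were higher in Shh+ cells. Other supply genes on the list, named here after their values were seen, did not all follow Acly and Me1. Slc25a1, the citrate carrier, was higher in Nfatc1+ cells (-0.66, limma adjusted p = 0.00122), and the NADPH genes G6pdx and Pgd were not called.

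Sebocyte markers differed in the direction of the fatty acid genes that were higher in Nfatc1+ cells, and against those that were higher in Shh+ cells. Of 11 tested sebocyte markers, 9 (81.8%) were called higher in Nfatc1+ cells and 0 in Shh+ cells, beside 18.9% and 18.1% of all tested genes. Their summed level over 12 genes was 688.0 and 596.1 FPKM in Nfatc1+ cells and 244.9 and 225.5 FPKM in Shh+ cells. Krt79 made up most of that sum. Pparg, the nuclear receptor of lipid-storing cells, was at 11.4 and 9.13 FPKM in Nfatc1+ cells and 0.115 FPKM and 0 in Shh+ cells, and Lpl was at 22.0 and 19.2 against 0.811 and 1.08 FPKM. Adipocyte markers were near 0 in every library, with a sum over 5 genes of 0.745 and 0.734 FPKM in Nfatc1+ cells and 0 in both Shh+ libraries. All 5 keratinocyte markers and 6 of 7 digestion and stress genes were also higher in Nfatc1+ cells (summed stress genes 2420 and 2548 against 1092 and 1133 FPKM). The part of these cells in the differences of Scd1, Elovl3, Elovl5, Elovl6 and Srebf1 was not tested, and the digestion and the population cannot be told apart. Merkel cell markers were also higher in Nfatc1+ cells (5 of 5), and the 3 tested markers of differentiated epidermis were higher in Shh+ cells, with summed levels of 491.9 and 558.3 FPKM in Nfatc1+ cells and 1002 and 802.2 FPKM in Shh+ cells. Fibroblast markers went both ways, with 1 of 6 called in each direction: Dcn was at 40.3 and 57.7 FPKM in Nfatc1+ cells and 326.4 and 424.7 FPKM in Shh+ cells, and Col3a1 was at 76.6 and 162.0 against 59.8 and 53.6 FPKM. Of 7 melanocyte markers none was called, and their sum was 19.2 and 47.6 FPKM in Nfatc1+ replicates 1 and 2 and 5.38 and 38.5 FPKM in Shh+ replicates 1 and 2. Immune markers summed to between 3.57 and 6.97 FPKM and endothelial markers to between 2.52 and 3.62 FPKM. Proliferation genes were close, with sums of 780.1, 726.3, 730.3 and 710.2 FPKM, 2 of 6 being called higher in Nfatc1+ cells.

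Some members share positions with other annotated genes in GENCODE vM21. On the other strand, exons of Elovl1 overlap Cdc20, those of Elovl3 overlap Pitx3, those of Fdft1 overlap Ctsb and those of Cyp51 overlap Akap9. Srebf1 overlaps Rai1 on the other strand and Mir6922 on its own. On the same strand, Tm7sf2 overlaps Vps51, Fdps overlaps Gm43738 and Scd2 overlaps Mir5114. Exons of Elovl6, Hmgcs1, Idi1, Lss, Me1 and Scap overlap a gene model known by a clone or predicted name on the other strand. Whether fragments were counted by strand is not given in the sources used here, so the values of these genes are less certain than those of genes that stand alone. The same holds for Acat2, which has a close copy.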

How the data were processed

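RNA-seq of 4 libraries, 2 of Nfatc1+ and 2 of Shh+ hair peg cells, was read as paired ends of 100 bases. The authors mapped the reads to mm10 with TopHat2 (2.0.13) and deposited FPKM values from Cufflinks (2.2.1) for 23361 genes. HTSeq is named in the submitters' processing notes with no role. No read counts were used here, so the test is not a count test, and every sample column of the table was used.

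Libraries were grouped by their titles. Values were tested as log2(FPKM + 0.5) with limma (3.58.1, R 4.3.3; trended variance prior, 2 residual degrees of freedom), for genes averaging 0.5 FPKM or more over the libraries, with Benjamini-Hochberg adjustment over all 12750. The procedure was tested on simulated data. An exact permutation test of 2 libraries against 2 cannot give a two-sided p below 0.333 and was not used.

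The members, the lists of neighbouring genes and markers, and the motifs were chosen with earlier results of these data known. Every member is accounted for. Values in each library were to be given for called members with a log2 fold change of at least 0.5 in size, the most abundant member of each group, Srebf1 and Srebf2, and neighbouring genes were named at a size of at least 1; other members were added, with their values seen, for their place in the pathway. The 13 alternatives changed the pseudocount, filter, scaling, variance prior, call rule, replicate block and libraries used. Coordinates are from GENCODE vM21 (GRCm38), and promoters from RefSeq (GRCm38.p6).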

Additional observations from a re-analysis of the deposited data

How the results depend on the processing

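Of the 20 calls among the members, 5 were ended by no alternative (Scd1, Elovl3, Elovl5, Elovl6 and Fads2), 1 was ended by none of those under which it was tested (Elovl2, which fell below a filter of 1 FPKM), 4 were ended by the fold rule alone (Elovl1, Elovl7, Idi1 and Srebf1), and 10 were ended by leaving out at least 1 library, 6 of 7 in the sterol arm and 4 of 12 in the fatty acid arm. Other pseudocounts and scalings ended no member call. The fold rule, an unadjusted limma p below 0.01 with a log2 fold change of more than 1 in size, called 600 genes toward Shh+ and 734 toward Nfatc1+ cells. In the same order it called 0 and 0 sterol enzymes, 2 and 4 fatty acid genes, 1 and 2 sterol neighbours, and 0 and 3 fatty acid neighbours. It called 0 regulators. With no filter, 3 sterol enzymes were higher in Shh+ cells, and with no trend in the variance prior 1 was, with 0 fatty acid neighbours.

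Leaving out 1 library, with the lone library of its group assumed to vary like the others, gave 1529 to 1741 genes higher in Shh+ cells, 1 to 6 sterol enzymes higher in Shh+ cells and 0 to 1 higher in Nfatc1+ cells, 1 to 2 regulators higher in Nfatc1+ cells, 5 to 6 sterol neighbours higher in Nfatc1+ cells and 0 to 1 fatty acid neighbours higher in Shh+ cells. The median of the regulators ran from -0.22 to -0.081. The log2 fold change turned for 3 genes that were not called: it ran from -0.011 (without Nfatc1+ replicate 2) to 0.15 for Pmvk, from -0.020 (without Shh+ replicate 1) to 0.23 for Lss, and from -0.090 to 0.030 for Srebf2, above 0 without Nfatc1+ replicate 2 or Shh+ replicate 2 (0.021). With the replicate number as a block, 6 sterol and 7 fatty acid genes were higher in Shh+ cells, Fasn and Tm7sf2 being added. The replicates share only a number: their differences correlated at 0.11 across genes, and no animal or batch is given. The causes of these changes were not tested. The 2 libraries a group, and the lower depth of Shh+ replicate 2, limit the precision of small differences and low values.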
